A study of Mus musculus with 12 samples.

Results

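The 9 genes of the inflammasome machinery were followed in mouse bone marrow-derived macrophages (BMDMs): the sensors Nlrp3, Aim2, Nlrc4, Naip2 and Naip5, the adaptor Pycard, the caspases Casp1 and Casp4, and the pore-forming effector Gsdmd. They were chosen by name, as the rows whose gene symbol was 1 of these 9, and each symbol had 1 row, so the set held 9 of the 23361 symbols in the tables. All 9 rows passed the expression filter, which asked for 1 FPKM in any of the samples, as did 11191 of the 23847 rows. The cells were wild type, came from mice aged 8 to 12 weeks on a C57BL/6 background, and were matured for 6 days in L929 cell supernatant, a source of the macrophage growth factor M-CSF. They were left untreated (control), given 20 ng/ml IL-4 over 24 h (IL-4), given 100 ng/ml LPS over 3 h (LPS), or given the same IL-4 pretreatment followed by the same LPS exposure (IL-4+LPS), with 3 samples in each of the 4 groups. The experiment asked whether earlier exposure to IL-4, the cytokine of alternative macrophage polarization, alters the response to LPS, a component of the bacterial outer membrane.

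An inflammasome is a multiprotein platform that assembles in the cytosol when a sensor meets a microbial product or a sign of damage. NLRP3 responds to membrane damage and ion efflux, AIM2 binds double-stranded DNA, and NLRC4 is engaged by NAIP proteins that recognise bacterial flagellin (NAIP5) or a rod protein of the type III secretion system (NAIP2). The adaptor ASC, the product of Pycard, bridges sensors to caspase-1, which matures the cytokines IL-1β and IL-18 and cleaves gasdermin D, the pore-forming protein encoded by Gsdmd. Mouse Casp4 encodes caspase-11, which is engaged directly by LPS in the cytosol and also cleaves gasdermin D. In macrophages the Nlrp3 and Casp4 transcripts are known to be low at rest and to be raised by a priming signal such as LPS.

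Values were FPKM (sequenced fragments per kilobase of transcript, divided by the mapped fragments of the library), which summed to 457583 to 495025 per sample. Fragment counts were not analysed here, so absolute depth was unknown. Relative depth, read from the steps of the low values with control replicate 1 set to 1, ran from 0.991 to 3.3. In the other samples it is a rough estimate, resting on 157 to 233 of 709 to 1170 genes with low values. Replicate 1 stood apart from replicates 2 and 3 in every group. It had the lowest estimated relative depth of its group in all 4 groups (0.991 to 1.03, against 1.27 to 3.3 in the other samples). The first component of the deviations from the group means was at least 15.5 in the 4 samples of replicate 1 and at most -4.45 in the other 8. Among the 9 genes, replicate 1 was the highest of its group in 4 of 4 groups for Aim2, Casp1, Casp4, Naip2 and Naip5, and the lowest in 4 of 4 groups for Pycard. The neutrophil transcript S100a8 moved with it, at 121.9 FPKM in control replicate 1 against 382.6 and 270.1 in replicates 2 and 3, and it was lowest in replicate 1 of the other groups too. The part of depth or of these transcripts in the results was not tested. Calls of the 9 genes that changed in replicates 2 and 3 only are therefore given too, as are those of the further gene lists for LPS minus control and IL-4+LPS minus LPS.

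Macrophage markers were abundant in every sample. All 6 listed (Csf1r, Emr1, Cd68, Itgam, Lyz2, Mertk) reached 1 FPKM in each group, and their summed level ran from 6551 FPKM in the IL-4+LPS group to 20530 in the control group, a spread that was mostly Lyz2 (16507.2 FPKM in control replicate 2 and 4834.0 in IL-4 replicate 2). In bulk RNA, fewer cells of a type and less RNA per cell cannot be told apart. Neutrophil markers summed to 211.4 to 975.3 FPKM, nearly all from S100a8 and S100a9. Fibroblast markers summed to at most 0.2303 FPKM, T cell markers to at most 3.447, B cell markers to at most 4.36 and dendritic cell markers to at most 3.645. The treatments left their marks: Retnla, an IL-4 target, lay between 5.906 and 19.53 FPKM in the control group and between 11616.8 and 13028.8 in the IL-4 group, and Cxcl10, an LPS target, between 2.446 and 4.788 FPKM in the control group and between 2429.6 and 2749.3 in the LPS group. Other LPS targets were lower in LPS replicate 1 than in replicates 2 and 3. Nos2 had 16.32 FPKM against 87.85 and 79.65, and Il6 had 48.8 against 71.89 and 78.12.

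Positions are in mm10. Nlrp3 was at chr11:59542686-59566956 (+ strand), Aim2 at chr1:173420604-173466036 (+), Nlrc4 at chr17:74426295-74459108 (-), Pycard at chr7:127991373-127993867 (-) and Gsdmd at chr15:75862339-75867404 (+). Casp1 (chr9:5298517-5307281, +) and Casp4 (chr9:5308860-5336791, +) were neighbours on the same strand, and Naip2 (chr13:100144063-100202092, -) and Naip5 (chr13:100211740-100247336, -) lay in the Naip cluster. All 9 were annotated as protein coding. The longest transcript of each gene in the GENCODE annotation was cut into words of 50 bases, and the percent of them also present in a transcript of a different gene was taken. It was 0% for Nlrp3, Casp1, Casp4 and Gsdmd, 1.13% for Nlrc4 and 0.932% for Aim2. For Naip2 it was 19.4%, mostly with Naip1, Naip3 and Naip5, and for Naip5 it was 36.9%, mostly with Naip6, Naip3 and Naip1, so fragments of these paralogs could be split among the family and their values are uncertain to that extent. For Pycard it was 11.8%, because 485 exon bases of its GENCODE model overlap Gm45205 on the opposite strand. Without strand information reads of such an overlap cannot be told apart. The GENCODE transcript has 3800 bases, more than the Pycard locus given with the FPKM values, so the overlap may lie outside the bases counted.

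The 250 bases before the transcription start are shown for the 4 members that rose most with LPS, to set the sequence of the most inducible pair, Nlrp3 and Casp4, beside that of Aim2 and Casp1. The sequences are from RefSeq (GRCm38.p6), 5′ to 3′ on the gene's strand, and capitals mark matches to a searched motif. Nlrp3 is chr11:59542436-59542685 (+), Casp4 is chr9:5308610-5308859 (+), Aim2 is chr1:173420354-173420603 (+) and Casp1 is chr9:5298267-5298516 (+).
Nlrp3: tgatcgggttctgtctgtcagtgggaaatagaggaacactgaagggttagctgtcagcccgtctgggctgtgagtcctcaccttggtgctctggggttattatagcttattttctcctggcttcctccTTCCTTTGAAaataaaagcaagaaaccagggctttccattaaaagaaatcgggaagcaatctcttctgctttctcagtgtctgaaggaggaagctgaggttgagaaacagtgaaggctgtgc
Casp4: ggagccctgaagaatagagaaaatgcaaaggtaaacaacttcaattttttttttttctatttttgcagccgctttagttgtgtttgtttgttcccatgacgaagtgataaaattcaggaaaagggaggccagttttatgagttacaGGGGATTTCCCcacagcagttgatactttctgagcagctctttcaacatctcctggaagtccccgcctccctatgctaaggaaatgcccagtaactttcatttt
Aim2: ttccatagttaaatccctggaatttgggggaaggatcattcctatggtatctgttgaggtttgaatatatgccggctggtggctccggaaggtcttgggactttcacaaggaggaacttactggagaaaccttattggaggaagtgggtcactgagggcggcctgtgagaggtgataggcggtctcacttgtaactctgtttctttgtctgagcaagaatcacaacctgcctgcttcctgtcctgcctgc
Casp1: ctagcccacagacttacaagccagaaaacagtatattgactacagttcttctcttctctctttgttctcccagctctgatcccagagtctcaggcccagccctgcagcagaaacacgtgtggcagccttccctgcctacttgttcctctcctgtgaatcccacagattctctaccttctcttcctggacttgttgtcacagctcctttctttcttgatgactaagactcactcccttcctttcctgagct
Both strands were searched for the NF-kB consensus, the STAT6 palindrome TTCNNNNGAA, the GAS palindrome TTCNNNGAA and the interferon-response element (GAAA repeated after 2 bases of any kind). The Nlrp3 window held 1 STAT6 palindrome, 122 to 113 bases before the start, and none of the other 3 motifs. In the Casp4 window 2 overlapping NF-kB matches lay 104 to 94 bases before the start, with no match to the other 3 motifs. No match was found in the Aim2 and Casp1 windows. Of 32851 promoters of this length, 3.9% held the NF-kB consensus, 5.85% the STAT6 palindrome, 7.02% the GAS palindrome and 2.98% the interferon-response element. Of the other members with an entry, Naip5 held 1 NF-kB match, 218 bases before its start, and Nlrc4, Pycard and Naip2 held none. Gsdmd had no entry. A match is a description of the letters and does not show that a factor binds there.

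LPS alone raised the transcripts of the sensors Nlrp3 and Aim2, of both caspases and of Gsdmd. By limma on log2(FPKM + 1), with Benjamini-Hochberg adjustment over the 11191 rows and a threshold of 0.05, 5 of the 9 genes were higher with LPS than in the control (Nlrp3, Casp4, Aim2, Casp1 and Gsdmd), where 16.9% of all rows were called higher. Lower calls fell on 2 of the 9 (Naip5 and Nlrc4), where 57.7% of all rows were called lower. IL-4 alone lowered 3 of the 9 (Nlrp3, Nlrc4 and Casp4), against 21.0% of all rows, and raised 1 (Pycard), against 16.0%. After IL-4 pretreatment, LPS raised 5 (again Nlrp3, Casp4, Aim2, Casp1 and Gsdmd), against 15.0% of all rows, and lowered 2 (Pycard and Naip5), against 57.9%. Between the LPS-exposed groups, 3 of the 9 were lower with IL-4 pretreatment (Nlrp3, Casp4 and Pycard), against 15.8% of all rows, and none was higher, against 15.0%. The LPS response itself differed with IL-4 pretreatment for 2 genes, Nlrp3 with a positive interaction and Pycard with a negative interaction, where 4.58% and 4.63% of all rows had such calls. At an unadjusted p under 0.05 and by a per-gene Tukey test, the count of genes higher with IL-4+LPS than with LPS was also 0. With the replicate number as a block in the model it was 1, Aim2 (0.43, adjusted p = 0.0123 by limma).

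LPS shifted the whole distribution, and this bears on the lower calls. The median log2 difference of all rows was -0.44 for LPS minus control and -0.41 for IL-4+LPS minus IL-4, against -0.05 and -0.03 for the IL-4 comparisons. Higher against lower calls numbered 1887 to 6462 for LPS minus control, of which 22.6% were higher, and median scaling made this 2966 to 4454 (40.0% higher) with a median of -0.14. For IL-4+LPS minus IL-4 the higher share went from 20.6% to 39.3% with median scaling and to 37.1% with quantile normalization, and for LPS minus control quantile normalization gave 40.2%. Among the 9 genes, the 5 rises with LPS held under both scalings in both LPS comparisons. Both scalings added Naip2 as a gene called higher in IL-4+LPS minus IL-4, which made 6. Nlrc4 lost its lower call for LPS minus control under both. Naip2 and Pycard, which were not called for LPS minus control, changed sign there, Naip2 under both (0.17 with median scaling, 0.11 with quantile normalization) and Pycard under median scaling only (0.20).

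**Figure D1:**
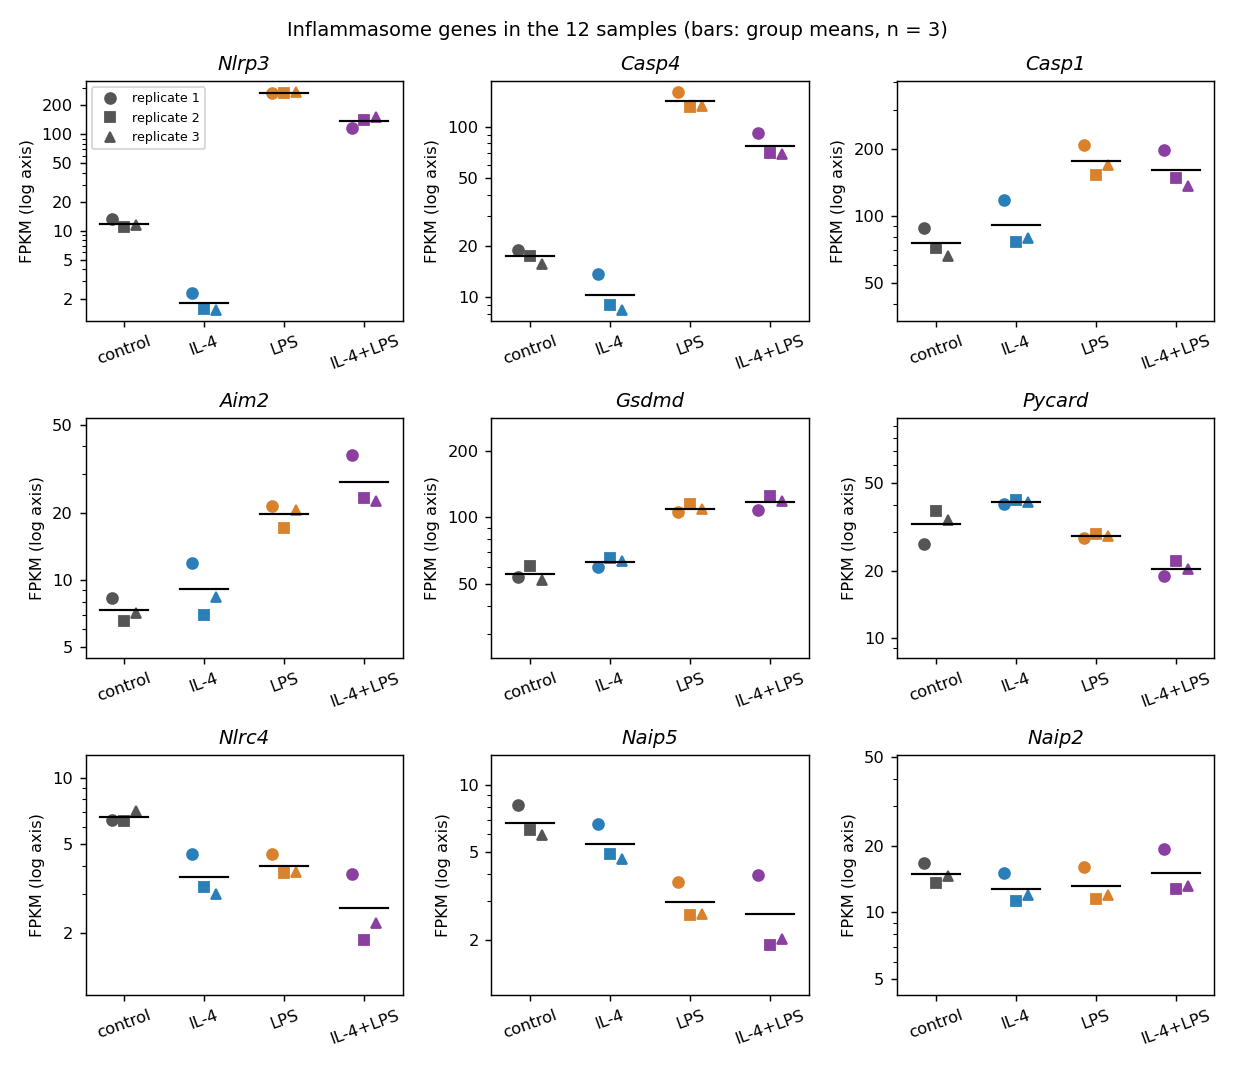
FPKM (log axis, set for each gene) of the 9 genes in the 12 samples, each point is a sample, its shape the replicate number, and each bar the mean of 3. Nlrp3 spans 1.526 to 273.9 FPKM with no overlap between groups, while the 4 groups of Naip2 overlap.

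Nlrp3 had the widest range of the 9. Its level was 13.2, 10.9 and 11.4 FPKM in control replicates 1 to 3 and 2.30, 1.54 and 1.53 in the IL-4 replicates. With LPS it reached 267.1, 265.9 and 273.9 FPKM, and with IL-4+LPS 116.6, 139.5 and 152. No sample of a group overlapped another group: every IL-4 sample was below every control sample, and every IL-4+LPS sample was below every LPS sample. Group means were 11.8 FPKM ± 1.16 (SD, n = 3) in the control, 1.79 ± 0.443 with IL-4, 269 ± 4.36 with LPS and 136 ± 17.9 with IL-4+LPS. LPS raised it 22.7-fold by the ratio of means, a log2 difference of 4.40 (SE 0.12, limma adjusted p = 1.77e-09). IL-4 alone lowered it to 0.151 of the control mean, a log2 difference of -2.21 (SE 0.12, adjusted p = 6.6e-07 by limma). With IL-4 pretreatment the level after LPS was 0.506 of that after LPS alone, a log2 difference of -0.99 (95% interval -1.26 to -0.71, adjusted p = 0.000177 by limma).

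The comparison of the Nlrp3 responses depended on the scale. From the IL-4 baseline LPS raised Nlrp3 76-fold, a log2 difference of 5.62, and the interaction was 1.22 (SE 0.18, 95% interval 0.84 to 1.61, limma adjusted p = 0.00188), so the response was larger in log2 terms after IL-4. In FPKM the gain was smaller, 134 after IL-4 against 257 without it. A pseudocount of 0.1 instead of 1 made the interaction 1.69, and replicates 2 and 3 only made it 1.38 (adjusted p = 0.000148 by limma). In those 2 replicates the difference between IL-4+LPS and LPS was -0.89.

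Aim2, the sensor of cytosolic DNA, rose with LPS from either baseline. Control replicates 1 to 3 had 8.34, 6.56 and 7.10 FPKM and the IL-4 replicates 11.9, 6.997 and 8.41. The LPS replicates had 21.6, 17.15 and 20.6 FPKM and the IL-4+LPS replicates 36.5, 23.4 and 22.65. Both LPS-exposed groups lay above both others, and the 3 IL-4+LPS samples lay above the 3 LPS samples, with replicate 1 far above its group. LPS minus control was 1.32 on the log2 scale (SE 0.21, limma adjusted p = 0.000172) and IL-4+LPS minus IL-4 was 1.49 (SE 0.21, adjusted p = 8e-05 by limma). IL-4+LPS minus LPS was 0.43 (95% interval -0.03 to 0.89, adjusted p = 0.145 by limma) and 0.28 in replicates 2 and 3 only (adjusted p = 0.0796), so a difference was not called although the groups did not overlap. With the replicate number as a block the 0.43 was called (adjusted p = 0.0123 by limma).

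In the NAIP and NLRC4 arm, LPS alone gave no higher call against the control. Nlrc4, which forms the inflammasome that NAIPs trigger, had 6.45, 6.39 and 7.11 FPKM in the control replicates, 4.51, 3.22 and 3.00 with IL-4, 4.54, 3.73 and 3.76 with LPS, and 3.69, 1.86 and 2.22 with IL-4+LPS. Every treated sample was below every control sample, and the 3 IL-4+LPS samples were below the 3 LPS samples. IL-4 lowered it by a log2 difference of -0.75 (SE 0.18, limma adjusted p = 0.00772) and LPS by -0.61 (SE 0.18, limma adjusted p = 0.00941). The LPS difference was -0.30 (adjusted p = 0.15) after median scaling and -0.12 (adjusted p = 0.497) after quantile normalization, both by limma. IL-4+LPS minus LPS was -0.51 (95% interval -0.91 to -0.12, limma adjusted p = 0.0522), just over the threshold, and -0.65 (adjusted p = 0.00121 by limma) in replicates 2 and 3 only. IL-4+LPS minus IL-4 was -0.37 (adjusted p = 0.0843 by limma) and -0.44 (adjusted p = 0.00272) in replicates 2 and 3 only.

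Naip5, the flagellin receptor, had 8.10, 6.25 and 5.98 FPKM in the control replicates and 6.69, 4.92 and 4.675 with IL-4. With LPS it had 3.66, 2.60 and 2.64 FPKM, and with IL-4+LPS 3.94, 1.91 and 2.02. The LPS-exposed groups overlapped each other and lay below both unexposed groups. LPS lowered it by a log2 difference of -0.97 without IL-4 (SE 0.21, limma adjusted p = 0.00167) and -0.86 after IL-4 (SE 0.21, limma adjusted p = 0.00395). Median scaling made these -0.67 and -0.58, both still called by limma, and quantile normalization made them -0.46 (adjusted p = 0.0498) and -0.37 (adjusted p = 0.111). In replicates 2 and 3 only, Naip5 was also called lower with IL-4 than in the control (-0.30, adjusted p = 0.00794 by limma) and lower with IL-4+LPS than with LPS (-0.29, adjusted p = 0.00982).

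Naip2 passed the threshold in none of the 5 comparisons of the 12 samples on unscaled FPKM without a replicate block, and in 1 of them after scaling. With the replicate number as a block it was called in each comparison except IL-4+LPS minus LPS (adjusted p = 0.0639 by limma). Its control replicates had 16.7, 13.6 and 14.6 FPKM, its IL-4 replicates 15.1, 11.2 and 12.0, its LPS replicates 16.05, 11.55 and 11.9, and its IL-4+LPS replicates 19.3, 12.8 and 13.15. All groups overlapped, and replicate 1 was the highest in each. Log2 differences lay between -0.22 for IL-4 minus control and 0.39 for the interaction (95% interval -0.16 to 0.94, limma adjusted p = 0.399). IL-4+LPS minus IL-4 was called higher by limma at 0.55 with median scaling (adjusted p = 0.0175) and at 0.47 with quantile normalization (adjusted p = 0.0349), against 0.21 without scaling. Replicates 2 and 3 alone gave calls by limma for LPS minus control (-0.24, adjusted p = 0.00751), IL-4 minus control (-0.26, adjusted p = 0.0116) and the interaction (0.39, adjusted p = 0.0186). The paralog share of 19.4% of its words applies to each of these values.

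Pycard, which encodes the adaptor ASC, rose with IL-4 and, in IL-4-pretreated cells, fell with LPS. It had 26.5, 37.5 and 34.0 FPKM in the control replicates and 40.3, 41.8 and 41.2 with IL-4. It had 28.4, 29.6 and 28.9 FPKM with LPS, inside the control range, and 19.1, 22.2 and 20.4 with IL-4+LPS, below every other sample. IL-4 raised it by a log2 difference of 0.34 (SE 0.11, limma adjusted p = 0.0324), a call that was lost in 5 of the 12 fits that left out a sample, with values from 0.20 to 0.44. The 5 samples were control replicates 1 and 3 and each of the IL-4 replicates. LPS minus control was -0.16 (95% interval -0.40 to 0.09, limma adjusted p = 0.214) and -0.28 (adjusted p = 0.00514) in replicates 2 and 3 only, also by limma. After IL-4, LPS lowered it by -0.97 (SE 0.11, limma adjusted p = 1.69e-05), to 0.5 of the IL-4 mean. Median scaling made this -0.62 (adjusted p = 0.000468 by limma). The interaction was -0.81 (SE 0.15, 95% interval -1.15 to -0.47, limma adjusted p = 0.0081), and IL-4+LPS minus LPS was -0.48 (SE 0.11, limma adjusted p = 0.00703).

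Casp1, the protease at the centre of the canonical inflammasome, had the highest level of the 9 in the control and IL-4 groups. It had 88.0, 71.8 and 65.6 FPKM in the control replicates and 118, 75.8 and 79.3 with IL-4. With LPS it had 207, 152 and 169 FPKM, and with IL-4+LPS 197, 147 and 135. The LPS-exposed groups overlapped each other and lay above both unexposed groups. The rise was 1.22 on the log2 scale without IL-4 (SE 0.20, limma adjusted p = 0.000247) and 0.82 after it (SE 0.20, limma adjusted p = 0.00379). The difference between those responses, -0.40 (95% interval -1.03 to 0.23, limma adjusted p = 0.447), was not called, and IL-4+LPS minus LPS was -0.14 (95% interval -0.59 to 0.30, limma adjusted p = 0.635). With the replicate number as a block the -0.40 was called (adjusted p = 0.0307 by limma). In replicates 2 and 3 only it was -0.355 (adjusted p = 0.0546).

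Casp4, the cytosolic LPS receptor, ranked behind Nlrp3 in the size of its LPS response. It had 18.95, 17.6 and 15.6 FPKM in the control replicates and 13.6, 8.98 and 8.43 with IL-4. With LPS it had 160.4, 131 and 133.5 FPKM, and with IL-4+LPS 91.7, 69.8 and 69.3. As for Nlrp3, the 4 groups did not overlap. LPS raised it 8.15-fold without IL-4 (log2 difference 2.96, SE 0.17, limma adjusted p = 1.36e-07) and 7.43-fold after IL-4 (log2 difference 2.80, SE 0.17, limma adjusted p = 2.37e-07). IL-4 lowered the resting level by -0.72 (SE 0.17, limma adjusted p = 0.00801) and the LPS-exposed level by -0.88 (95% interval -1.26 to -0.50, limma adjusted p = 0.00307). The interaction was -0.16 (95% interval -0.70 to 0.38, limma adjusted p = 0.752), so unlike for Nlrp3 no difference between the log2 responses was called, while the gain in FPKM was 66.6 after IL-4 against 124 without it.

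Gsdmd, the pore-forming effector, had the smallest error of the 9 genes. It had 53.9, 60.6 and 52.5 FPKM in the control replicates, 60.0, 65.5 and 63.4 with IL-4, 105, 115 and 109 with LPS, and 108, 124 and 119 with IL-4+LPS. The groups fell into an unexposed pair and an LPS-exposed pair that did not overlap, and within each pair the groups overlapped. LPS raised it by 0.97 without IL-4 (SE 0.08, limma adjusted p = 1.12e-06) and by 0.89 after IL-4 (SE 0.08, limma adjusted p = 2.63e-06). The gain was 54.0 FPKM without IL-4 and 54.3 after it, and the interaction was -0.08 (95% interval -0.32 to 0.16, limma adjusted p = 0.708).

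**Figure D2:**
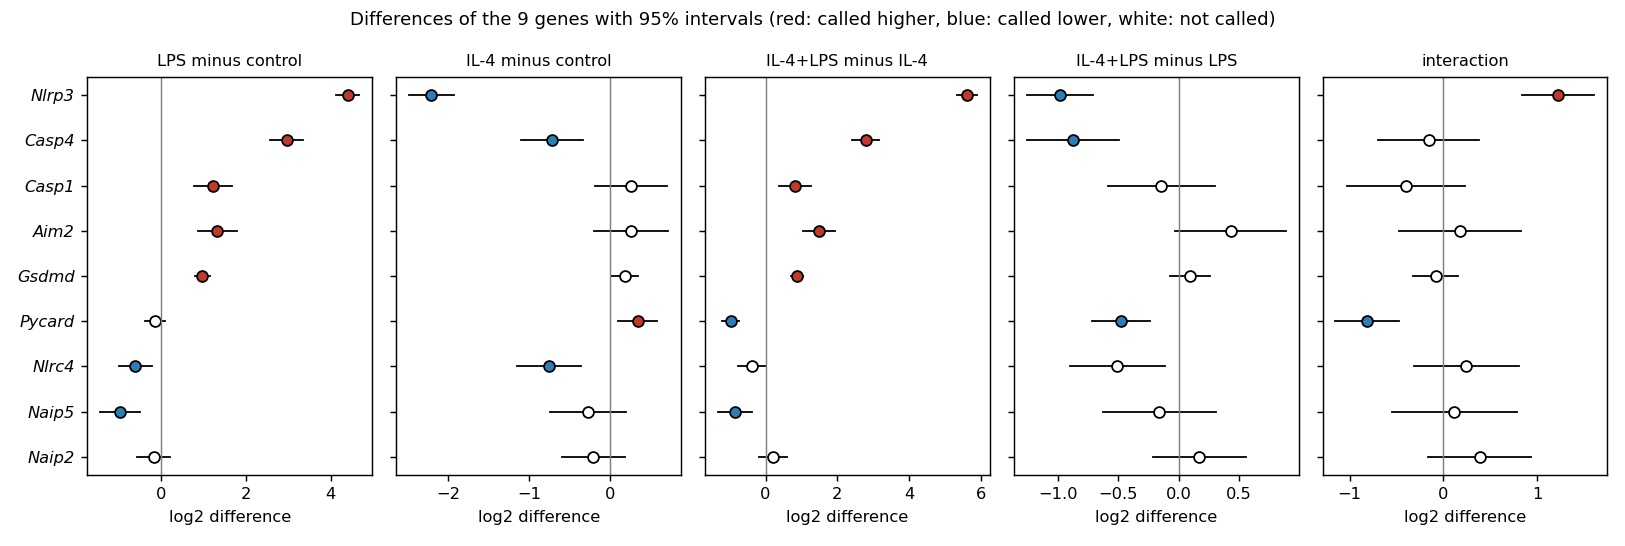
Log2 differences of the 9 genes in the 5 comparisons, on log2(FPKM + 1) with a scale for each panel, points are limma estimates, lines 95% intervals, and colours the calls at an adjusted p of 0.05. The interaction is called for Nlrp3 (1.22) and Pycard (-0.81), and its intervals include 0 for the other 7 genes.

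None of the calls of the 9 genes over 12 samples was lost in replicates 2 and 3 only. That fit gave 4 lower calls instead of 2 for LPS minus control (Naip2 and Pycard added), 5 instead of 3 for IL-4 minus control (Naip2 and Naip5 added), 3 instead of 2 for IL-4+LPS minus IL-4 (Nlrc4 added), 5 instead of 3 for IL-4+LPS minus LPS (Nlrc4 and Naip5 added), and 2 positive interactions instead of 1 (Naip2 added). Over all rows the same fit also made more of these calls. Lower calls went from 6462 to 7032 for LPS minus control and from 2346 to 3286 for IL-4 minus control. They went from 6474 to 7143 for IL-4+LPS minus IL-4 and from 1771 to 2901 for IL-4+LPS minus LPS. Positive interactions went from 512 to 1481.

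**Figure D3:**
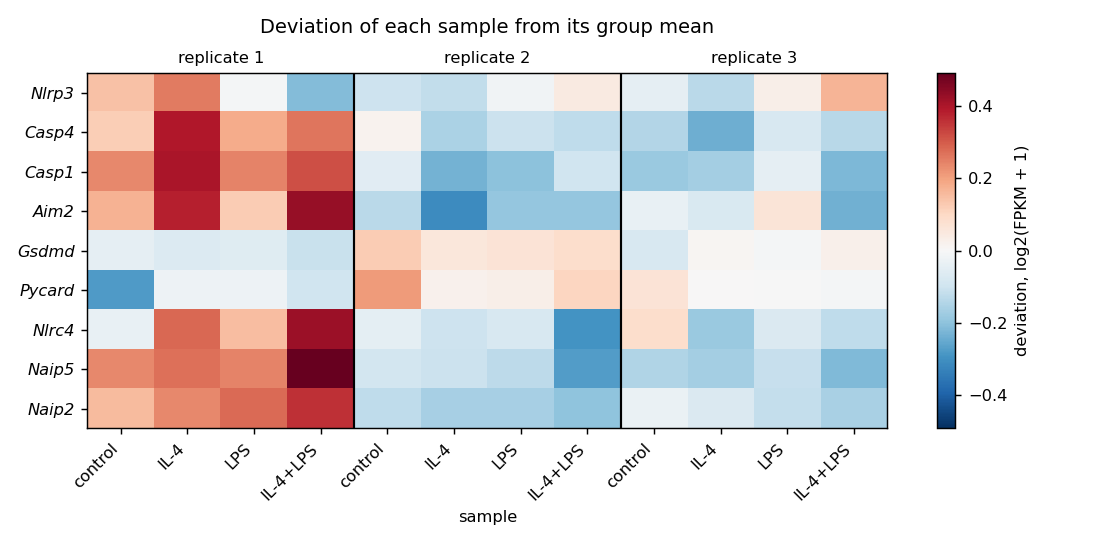
Deviation of each sample from its group mean on log2(FPKM + 1), in colour, for the 9 genes (rows) and 12 samples (columns, by replicate number). The 4 samples of replicate 1 are above their group means for Aim2, Casp1, Casp4, Naip2 and Naip5 and below them for Pycard.

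FPKM is scaled per length, so levels can be ordered within a group. In the control group the order of mean levels was Casp1, Gsdmd, Pycard, Casp4, Naip2, Nlrp3, Aim2, Naip5 and Nlrc4, and the ranges of Casp4 and Naip2, of Aim2 and Naip5, and of Naip5 and Nlrc4 overlapped. IL-4 put Nlrp3 last, below Nlrc4, with no overlap. LPS put Nlrp3 first at 269 FPKM, above Casp1 at 176 ± 28.2 and Casp4 at 142 ± 16.3, whose ranges overlapped each other. Pycard went from place 3 in the control group to place 5 with LPS at 28.9 ± 0.576. In the IL-4+LPS group Casp1 (160 ± 32.7), Nlrp3 (136 ± 17.9) and Gsdmd (117 ± 8.16) came first, with overlapping ranges between neighbours, and Pycard was at place 6 with 20.6 ± 1.53. All SDs here are over 3 samples. Naip5 and Nlrc4 were the last pair in both LPS-exposed groups, and in the control and IL-4+LPS groups they changed places when medians were used.

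The genes whose pattern over the 12 samples was most like each member were found by Pearson's r among 11097 genes. The samples share the 4 treatments, which set most of each correlation, so the values are a description. Nlrp3 was most like Birc3 (r = 0.998), Pstpip2 (0.998) and Akna (0.997). Casp4 was most like Mgat4a (0.994), Gsdmd like Rmdn3 (0.993), Naip5 like Zranb3 (0.992), Casp1 like Lilrb4 (0.984) and Nlrc4 like Utrn (0.979). Aim2 was most like Appl1 (0.972), Naip2 like Rsbn1l (0.956) and Pycard like Rad9a (0.954). Among the members themselves, Nlrp3 and Casp4 correlated with r = 0.982, Aim2 and Casp1 0.943, Gsdmd and Naip5 -0.93, and Nlrc4 and Naip5 0.797.

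Other genes listed as sensors were mostly lower with LPS, the direction of most calls over all rows. Of 10 further listed genes (NAIP and NLRP genes and Mefv), 8 passed the filter. With LPS 1 of the 8 was higher and 7 were lower than in the control, where 16.9% of all rows were called higher and 57.7% lower. The median log2 difference was -0.87, against -0.44 for all rows. Mefv, which encodes pyrin, was the higher gene: it had 9.01 to 10.6 FPKM in the control group and 106.4 to 138.1 with LPS (log2 difference 3.52, SE 0.13, limma adjusted p = 9.37e-09). Nlrp1b, a sensor of bacterial proteases, fell, with 10.8 to 17.7 FPKM in the control group and 1.47 to 5.17 with LPS (-2.04, SE 0.38, limma adjusted p = 0.000608), and its pseudogene relative Nlrp1c-ps had a difference of -1.19 (SE 0.30, limma adjusted p = 0.00428). Median scaling kept 4 of the 7 lower calls and quantile normalization kept 3, and the calls of Naip1, Naip6 and Naip7 were lost under both. Naip1, Naip7 and Nlrp10 reached 1 FPKM only in samples without LPS, so the filter favoured their falls. In the control group Naip1 had 0.9097 to 1.08 FPKM and Naip7 0.9536 to 1.291. The Naip7 locus (chr13:100283115-100317688) overlaps that of Naip6 (chr13:100281121-100316616), so fragments could be split between them. Of the 50-base words, 32.5% of Naip1 and 21.5% of Naip6 were shared with other genes. IL-4+LPS minus LPS was lower for 1 of the 8, Mefv (-0.71, SE 0.13, limma adjusted p = 0.00252), against 15.8% of all rows. It was higher for 1, Nlrp1a (0.39, SE 0.11, limma adjusted p = 0.02), against 15.0%. Replicates 2 and 3 only added lower calls there for Naip6, Nlrp1b and Nlrp1c-ps and a higher call for Naip7, 4 lower and 2 higher in all. Nlrp6 and Nlrp12 never reached 1 FPKM.

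Against the same 16.9% and 57.7% of all rows, 3 of 6 other NOD-like receptors rose with LPS (Nod2 by 3.72, Nlrc5 by 1.77 and Nod1 by 1.75 on the log2 scale) and 3 fell (Nlrx1 by -1.59, Ciita by -1.25 and Nlrc3 by -0.73), all with limma adjusted p of 2.56e-05 or less. Nlrx1 and Nlrc3 reached 1 FPKM only in samples without LPS, so the filter favoured their falls. For Nlrc3 this was control replicate 3 alone, at 1.002 FPKM, and its LPS samples had 0.05995 to 0.1975. NOD1 and NOD2 sense peptidoglycan fragments and signal to NF-kB rather than through caspase-1. Between the LPS-exposed groups, 1 of the 6 was higher with IL-4 pretreatment, against 15.0% of all rows. That gene was Ciita, the transactivator of MHC class II genes, which had 2.09 to 2.32 FPKM with LPS and 17.9 to 21.0 with IL-4+LPS (log2 difference 2.69, SE 0.12, limma adjusted p = 1.08e-07). In replicates 2 and 3 only, Nod2 was called lower there (-0.20, limma adjusted p = 0.0285).

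Of 5 listed cytokine-related genes, 4 rose with LPS, against 16.9% of all rows, and Il18bp was not called. Among them are the caspase-1 substrates Il1b, with a log2 difference of 8.197 (SE 0.59, limma adjusted p = 5.85e-07), and Il18, with 1.13 (SE 0.11, limma adjusted p = 6.38e-06). Il1b had 4.44 to 6.44 FPKM in the control group. The LPS samples, in replicate order, were at 1187.2, 2246.6 and 2313.6 FPKM, and the IL-4+LPS samples at 478.3, 2316.7 and 2499.6. In both LPS-exposed groups replicate 1 was the lowest, and IL-4+LPS minus LPS was -0.39 (SE 0.59, limma adjusted p = 0.671) over all samples and 0.08 (adjusted p = 0.859) in replicates 2 and 3 only. Il18 was lower with IL-4+LPS (8.13 to 9.90 FPKM) than with LPS (16.9 to 22.1), a log2 difference of -1.06 (SE 0.11, limma adjusted p = 5.4e-05). Il1rn, the receptor antagonist, was lower by -2.63 (SE 0.40, limma adjusted p = 0.000598). Il1a was called higher with IL-4+LPS in replicates 2 and 3 only (1.38, limma adjusted p = 0.000187). Its control level was 0.2726 to 0.6597 FPKM and its IL-4 level at most 0.2688. It passed the filter only through LPS-exposed samples, so the filter favoured its rise with LPS.

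Of 8 listed genes that prime or trigger NLRP3, 7 were lower with LPS than in the control by limma, against 57.7% of all rows, and none was higher, also at an unadjusted p under 0.05 (0 of 8), with a median log2 difference of -1.05 against -0.44 for all rows. P2rx7, the ATP-gated channel that starts NLRP3 activation, fell, with 22.6 to 25.0 FPKM in the control group and 3.55 to 5.51 with LPS (-2.22, SE 0.14, limma adjusted p = 2.93e-07). Txnip had a difference of -1.99 (SE 0.21, limma adjusted p = 9.02e-06) and the channel gene Panx1 of -1.43 (SE 0.26, limma adjusted p = 0.000496). With median scaling 5 of the 8 were lower and 1, Casp8, was higher. In IL-4+LPS minus LPS, 3 of the 8 were higher, against 15.0% of all rows: Ripk3 (1.00, SE 0.17, limma adjusted p = 0.00151), Txnip (0.78, SE 0.21, limma adjusted p = 0.0164) and P2rx7 (0.46, SE 0.14, limma adjusted p = 0.0333). Replicates 2 and 3 only added a lower call for Panx1 (-0.54, limma adjusted p = 0.000569).

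Of 6 listed negative regulators, 5 passed the filter and 4 were higher with LPS than in the control, against 16.9% of all rows: Tnfaip3 (4.87, SE 0.29, limma adjusted p = 1.5e-07), which edits ubiquitin in NF-kB signaling, Pydc4 (2.89, SE 0.33, limma adjusted p = 1.65e-05), Pydc3 (2.77, SE 0.31, limma adjusted p = 1.45e-05) and Trim30a. Control levels reached at most 0.9257 FPKM for Pydc3 and 0.6857 for Pydc4, and their IL-4 levels were lower still. These genes passed the filter only through LPS-exposed samples, so the filter favoured their rises. Casp12 never reached 1 FPKM and was not tested. None of the 5 was called by limma for IL-4+LPS minus LPS over 12 samples (0 at an unadjusted p under 0.05), where 15.0% of all rows were higher and 15.8% lower. In replicates 2 and 3 only, 4 were lower, a fit in which lower calls over all rows went from 1771 to 2901. Of the 7 measured genes on the route to caspase-11, 5 rose with LPS against the control, where 16.9% of all rows did, led by Gbp5 (7.67), Gbp2 (4.95) and Gbp3 (4.16), guanylate-binding proteins that act on cytosolic bacteria, and Hmgb1 fell (-0.74, SE 0.14, limma adjusted p = 0.000648). None of the 7 was called by limma for IL-4+LPS minus LPS (2 were higher at an unadjusted p under 0.05), in which Casp4 itself was lower. In replicates 2 and 3 only, Gbp2 was called higher (0.82, limma adjusted p = 0.0393) and Gbp7 lower (-0.38, limma adjusted p = 0.0174).

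The 8 listed genes linked to cytosolic DNA sensing were mostly PYHIN relatives of Aim2. With LPS 7 of the 8 were higher than in the control (median 3.23), against 16.9% of all rows. They were led by Ifi205 (5.70, SE 0.36, limma adjusted p = 2.34e-07), Mnda (4.30, SE 0.36, limma adjusted p = 1.69e-06) and Ifi203 (3.53, SE 0.41, limma adjusted p = 2.08e-05). Tmem173, which encodes STING, was lower (-0.86, SE 0.17, limma adjusted p = 0.00106). In IL-4+LPS minus LPS 1 of the 8 was higher, Tmem173 (0.64, SE 0.17, limma adjusted p = 0.0176), against 15.0% of all rows. In replicates 2 and 3 only, 4 were lower, a fit in which lower calls over all rows went from 1771 to 2901. These PYHIN genes are close paralogs and their values can share fragments.

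Of 8 listed symbols linked to pyroptosis and membrane rupture, 7 were in the tables and 4 passed the filter. The absent symbol, Gsdme, names the same gene as Dfna5. With LPS 3 of the 4 were higher than in the control, against 16.9% of all rows, Mlkl (1.44, SE 0.08, limma adjusted p = 1.36e-07), Chmp4b (0.67, SE 0.12, limma adjusted p = 0.000462) and Ninj1 (0.22, SE 0.08, limma adjusted p = 0.0331), and Dfna5, which encodes gasdermin E, was lower (-1.90, SE 0.16, limma adjusted p = 1.63e-06). The Ninj1 call was lost in replicates 2 and 3 only, and its sign changed with quantile normalization. Ninj1, which ruptures the plasma membrane after gasdermin pores form, had 559.8 to 628.5 FPKM with LPS and 306.1 to 317.2 with IL-4+LPS (-0.91, SE 0.08, limma adjusted p = 1.58e-05). Mlkl, the executor of necroptosis, was higher with IL-4+LPS than with LPS (0.44, SE 0.08, limma adjusted p = 0.00243).

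**Figure D4:**
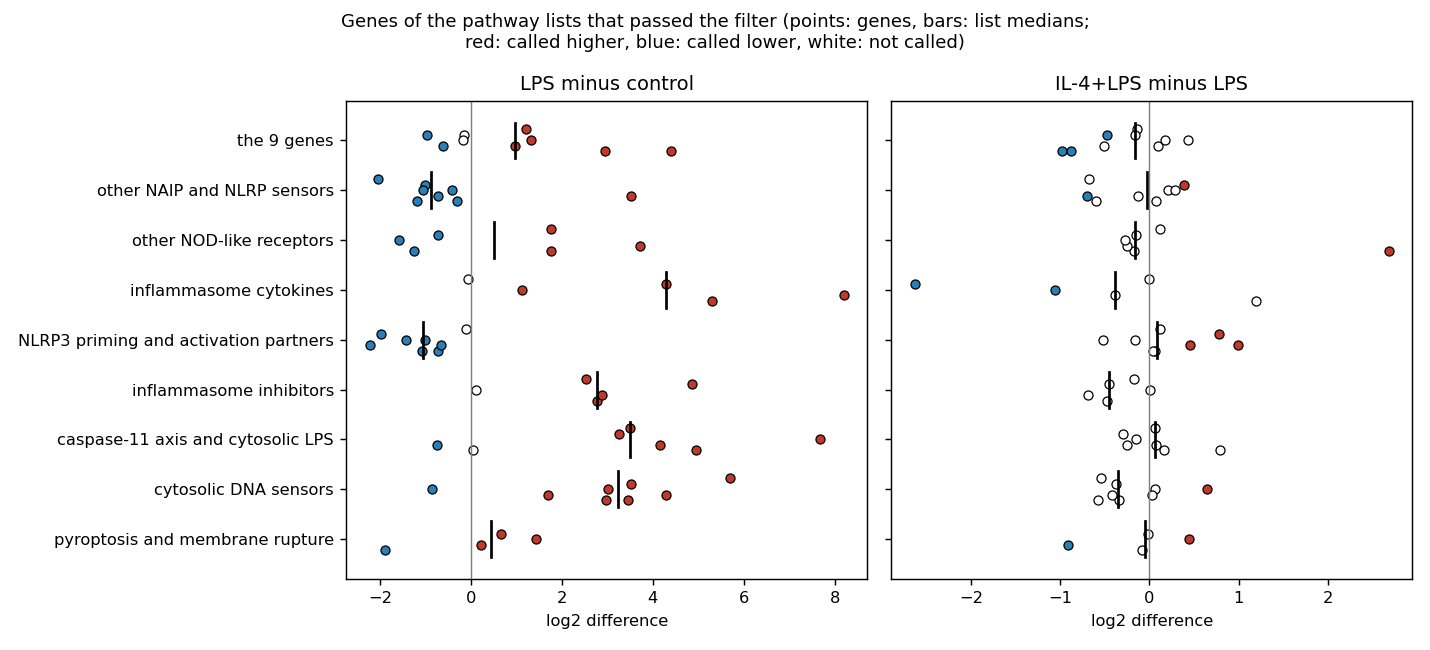
Log2 differences on log2(FPKM + 1) for LPS minus control and for IL-4+LPS minus LPS, points are genes of each list that passed the filter, bars list medians, and colours the calls. With LPS the NLRP3 partners lie below 0 (median -1.05) and the list labelled cytosolic DNA sensors mostly above it (median 3.23).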

How the data were processed

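Poly-A RNA libraries from 12 BMDM samples were sequenced as paired reads. The authors mapped reads to mm10 with TopHat2 2.0.7 and computed expression with Cufflinks 2.0.2 (versions per the submitters' processing notes), and deposited FPKM values, 1 table per sample. The annotation was not given in the sources used here, and the library kit named does not mark strand. Because FPKM divides by the fragments mapped in the library, a shift in RNA composition moves all its genes. The study describes cells of 3 animals used in 2 separate experiments, but the labels do not tie replicate numbers to animals or experiments, so p-values measure the spread between these samples. The LPS dose is given in ng/ml per the labels, while the study's methods write the same figure in nM.

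Rows with at least 1 FPKM in at least 1 sample were kept (11191). Values were transformed to log2(FPKM + 1), which understates changes of low genes. All 12 samples entered a model with 1 mean per group in limma 3.58.1 (R 4.3.3, intensity trend), with 5 contrasts and Benjamini-Hochberg adjustment within each at a threshold of 0.05. The interaction subtracts the LPS response of untreated cells from that of IL-4-pretreated cells. The script was tested on simulated data. The members and lists were chosen with earlier results of these data known. Members are named in every contrast, and for each list up to 3 genes with the largest called change in LPS minus control and in IL-4+LPS minus LPS, plus Il1b and Il18. Other list genes were named after their values were seen, where a count was small. Correlation partners were the genes with the highest Pearson r. Loci were taken from the files and promoters from RefSeq (GRCm38.p6). The alternatives were a pseudocount of 0.1, no filter, at least 1 FPKM in 3 samples, quantile normalization, median scaling, no trend, only the compared groups, a per-gene Tukey test, unadjusted p, blocking on replicate number, replicates 2 and 3 only, each sample left out, group medians for the order of levels, and 100-base words. Figures were drawn with matplotlib.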

Additional observations from a re-analysis of the deposited data

Results flagged for a closer look

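The LPS response differed with IL-4 pretreatment, by a test of the interaction in limma, for 2 of the 9 genes and 4 genes of the lists. The 4 were 2 of 6 other NOD-like receptors and 2 of 8 NLRP3 partners, with none in the other lists over 12 samples. Over all rows, 4.58% had a positive and 4.63% a negative interaction call. On the log2 scale the interaction was 1.22 for Nlrp3 (adjusted p = 0.00188 by limma) and -0.81 for Pycard (adjusted p = 0.0081 by limma). Among other NOD-like receptors it was 1.71 for Ciita (adjusted p = 0.000229 by limma) and 0.76 for Nlrc5 (adjusted p = 0.0367 by limma), and the Nlrc5 call was lost under median scaling and under quantile normalization. Among NLRP3 partners it was 1.24 for Txnip (adjusted p = 0.0265 by limma) and 0.79 for P2rx7 (adjusted p = 0.0376 by limma). In replicates 2 and 3 only, every list had interaction calls by limma. Those of the cytokine list were Il1a (1.757, adjusted p = 0.000978), Il1b (1.488, 0.0442), Il18bp (0.408, 0.0375) and Il1rn (-1.382, 0.000242). Over all rows that fit raised positive calls from 512 to 1481 and negative calls from 518 to 1386.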

How the results depend on the processing

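With no intensity trend, every call and direction of the 9 genes in the 5 comparisons was as reported. Calls lower for LPS minus control numbered 2 as reported, 1 with quantile normalization, 1 with median scaling, 1 by the per-gene Tukey test and 4 with replicates 2 and 3 only. Calls higher for IL-4 minus control numbered 1 as reported (Pycard), 0 with no filter, 0 with only the compared groups, 0 by the Tukey test, 2 at unadjusted p, and 0 to 2 when a sample was left out. Calls lower for IL-4 minus control went from 3 to 5 with replicates 2 and 3 only, those lower for IL-4+LPS minus IL-4 from 2 to 1 with quantile normalization, those lower for IL-4+LPS minus LPS from 3 to 5 and positive interactions from 1 to 2 with replicates 2 and 3 only. Nlrc4 in IL-4+LPS minus LPS passed with a pseudocount of 0.1 (adjusted p = 0.0466 by limma), 1 FPKM in 3 samples (0.0499) and median scaling (0.0448).

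The direction changed in LPS minus control for Naip2 (0.11 with quantile normalization, 0.17 with median scaling) and Pycard (0.20 with median scaling), and in IL-4+LPS minus IL-4 for Nlrc4 (0.14 with quantile normalization). With a sample left out, the range was -0.008 to 0.311 for Naip2 in IL-4+LPS minus LPS. Among interactions it was -0.038 to 0.366 for Aim2, -0.290 to 0.039 for Casp4 and -0.130 to 0.252 for Naip5. The cause of these changes was not tested. None of these values was called in any of those fits.

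With the replicate number as a block, lower calls for LPS minus control became 3 (Naip2 added). Calls for IL-4 minus control became 3 higher (Casp1 and Gsdmd added) and 5 lower (Naip2 and Naip5 added), and those for IL-4+LPS minus IL-4 became 6 higher (Naip2 added) and 3 lower (Nlrc4 added). For IL-4+LPS minus LPS they became 1 higher (Aim2, 0.43, adjusted p = 0.0123 by limma) and 4 lower (Nlrc4 added). Interactions became 2 positive (Naip2, 0.39, adjusted p = 0.0224 by limma) and 2 negative (Casp1, -0.40, adjusted p = 0.0307). No call was lost with the block. Over all rows the block also made more calls. Lower calls for LPS minus control went from 6462 to 7013. For IL-4 minus control, higher calls went from 1795 to 2402 and lower from 2346 to 3183. For IL-4+LPS minus IL-4 they went from 1682 to 1927 and from 6474 to 7206. For IL-4+LPS minus LPS they went from 1682 to 2287 and from 1771 to 2667. Positive interactions went from 512 to 1145 and negative from 518 to 1095. Deviations from the group means correlated between samples of the same number at r from 0.00236 to 0.386 (mean 0.124, 18 pairs, 11 of them over 0.1), and 9 of the 12 samples correlated best with their own number, a hint from the data and not from the labels. Low levels and unknown depth limit Nlrc4, Naip5 and Nlrp3 after IL-4.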
